A study of Arabidopsis thaliana with 4 samples.

Results

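The comparison set the 2 late arrays of a growth course, from days 5 and 7, against the 2 early arrays, from days 1 and 3, in cells of MM2d, a suspension-cultured line of Arabidopsis thaliana. All 4 arrays of the series enter it, 2 a side, and sides were formed from the day in the labels. Per the labels, 5 ml of a culture that had reached early stationary phase, 7 days after its last transfer, was put into 100 ml of new medium, and cells were collected on days 1, 3, 5 and 7. All 4 groups share the line, the medium, which held sucrose at 3%, NAA (an auxin) at 0.5 mg/l and kinetin (a cytokinin) at 0.05 mg/l, and growth in the dark at 130 rpm and 27 °C. Each day is 1 Affymetrix ATH1 array, and the labels name no separate flasks. The 2 days of a side are therefore different stages and not replicates.

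A suspension culture that has been diluted into new medium takes up sugar and mineral nutrients, divides, and stops dividing when the medium is used up. Cells in division make ribosomes and the machinery of mitosis. Cells that leave division are known to enlarge, to remodel their walls and to recycle proteins through the vacuole, partly by autophagy. Green tissue is not part of such dark-grown cells. Of 4 annotated green-cell markers, LHCB4.2 had signals of 0.608 to 1.14 and PSAE-1 of 3.55 to 20.9, PORB ranged from 5.69 to 63.6, and RCA from 93.6 to 152, with overlapping sides in each case. In a culture, a smaller share of one kind of cell and less of a transcript per cell cannot be told apart.

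Signals below 25 were raised to 25, which is read as a bound. Of 22746 probe sets, 15344 had at least 1 array above it and are called measured. A probe set is called consistent when both late signals lay above, or both below, both early signals, and the difference is the mean log2 signal of the late side minus that of the early side. The gap is the distance between the nearest 2 signals of the sides, as a fold. Median signals were 36.3, 41.4, 43.2 and 44.3 on days 1, 3, 5 and 7. The 3' to 5' ratio for actin, which grows as RNA degrades, took values of 1.455, 1.094, 1.177 and 1.046. For ubiquitin it was 1.586, 1.215, 1.3 and 1.239. For GAPDH it was 0.979, 0.950, 0.996 and 1.123, so the controls differ on which day was highest. The part of these shifts in the results was not tested.

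At least 2-fold and consistent differences were found in both directions. The late side was higher for 1046 measured probe sets (6.82%) and lower for 692 (4.51%). At any size, 4299 were consistently higher (28%) and 3741 consistently lower (24.4%). The split depends on the scaling of the arrays, being 1046 to 692 as deposited, 778 to 1098 with a common median, 890 to 915 with a common 75th percentile, 923 to 721 after quantile normalization and 1428 to 406 with the hybridisation controls. These scalings placed the median difference of all measured probe sets at -0.09, -0.03, -0.04 and 0.19 on the log2 scale, against 0.04 as deposited. Without day 7 the count of lower probe sets was 452, without day 3 it was 1083 and without day 5 it was 1211.

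**Figure D1:**
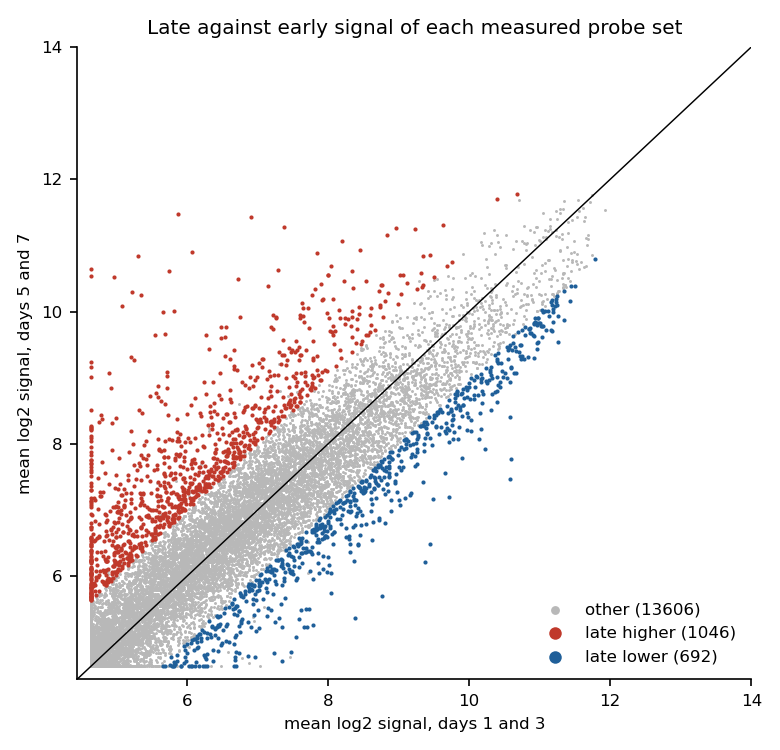
Mean log2 signal of days 5 and 7 (vertical axis) against that of days 1 and 3 (horizontal axis) for 15344 measured probe sets, with signals below 25 raised to 25; red marks the 1046 and blue the 692 probe sets with a consistent difference of at least 2-fold, and the line marks equal signal. Red points include a column at the left edge, the 111 probe sets at or below 25 on both early arrays.

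The size limit runs through a continuous distribution. Between 1.5-fold and 2-fold, 1192 further probe sets were consistently higher and 1266 consistently lower. A mean difference of at least 2-fold with overlapping sides was seen for 46 higher and 29 lower probe sets. The nearest signals themselves were at least 2-fold apart for 481 of the higher and 179 of the lower probe sets. The late minus early values of 2 probe sets for 1 gene varied with an SD of 0.379 on the log2 scale over 96 such genes. Of 28 called probe sets with such a partner, 25 partners lay on the same side of 0 and 20 were called the same way. The 2 probe sets of a gene are read from the same arrays. The SD and these counts therefore gauge disagreement between probe sets only. Error that probe sets share, from the culture, the RNA or the array, is not in them and was not tested.

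The step between days 3 and 5 was most often the largest. Of the 1046 higher probe sets, 776 had their largest step between days 3 and 5, 145 between days 1 and 3 and 125 between days 5 and 7. Of the 692 lower probe sets, 441 had it between days 3 and 5, 70 between days 1 and 3 and 181 between days 5 and 7. All 3 steps went the same way in 533 of the higher (51.0%) and 503 of the lower probe sets (72.7%). Both counts are shaped by the rule, which asks for a separation between days 3 and 5. Over all measured probe sets the SD of the log2 difference was 0.534 between days 1 and 3, 0.675 between days 3 and 5 and 0.523 between days 5 and 7.

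A moderated test, limma with 2 arrays a side, called 19 probe sets higher (0.124%) and 0 lower (0%) at a Benjamini-Hochberg adjusted p under 0.05, with unadjusted p under 0.05 for 1883 higher and 1638 lower. Its spread is that between the 2 days of a side, so it holds change from day to day as well as error. All 19 were also consistent and at least 2-fold, with differences of 2.76 to 6.0 on the log2 scale, and without any 1 of the 4 days the test called 0. In many of the 19, 266132_at, AT5G20790 and ATSPS4F among them, both early signals had been raised to the bound set above. Their early side then held no spread, and their own spread came from the late side alone. Their adjusted p therefore takes no account of early variation, and their differences are lower bounds. An exact permutation of 2 against 2 arrays cannot go below a two-sided p of 0.333.

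The 3 probe sets with the lowest limma adjusted p have no gene in the annotation used here. Probe set 266132_at had signals of 7.01 and 14.7 on days 1 and 3, against 1672 and 1522 on days 5 and 7. For 259399_at the 4 signals were 8.59, 10.03, 1558 and 1433. For 266184_s_at, whose suffix marks probes shared by several transcripts, they were 62.1, 55.4, 3094 and 2618. In all 3 the early signals were low and the late ones high, and the 2 late signals lay close together. In 263391_at the signals were 20.4 and 38.8 early and 1411 and 1523 late.

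Among the 19, AT5G20790 was at 1.95 and 1.46 early and at 281 and 276 late. AT3G44510 was represented by both of its probe sets, at 1.68 and 1.70 early against 224 and 247 late in one, and at 1.78 and 1.52 against 238 and 196 in the other. ATSPS4F, a sucrose-phosphate synthase that makes sucrose, was at 2.38 and 19.0 early and at 202 and 212 late (limma, adjusted p = 0.0402). For that test both of its early signals were raised to the same bound, so the difference between them is not in the p-value. The others with 1 gene were AT5G63130, AT5G42830, AT1G19200, AT1G23140 and AT2G42690, all known here by locus code.

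The widest gaps among genes with a symbol and 4 signals above 25 belonged in part to wall proteins. EXLA2, an expansin-like protein, had signals of 52.8 and 50.4 early and 238 and 289 late, a gap of 4.52-fold (limma, adjusted p = 0.0593). XTH19, an enzyme that cuts and rejoins xyloglucan in the wall, had signals of 119 and 152 early and 547 and 707 late. EXPA15, an expansin that loosens walls, had the widest gap the other way, with 206 and 178 early and 42.4 and 39.6 late, or 4.2-fold. XTH20, of the same family as XTH19, was at 200 and 202 early and at 56.0 and 24.4 late. Its day 7 signal lay below 25, so it is outside that set and was named by locus code. Members of the same wall families thus stood on opposite sides.

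**Figure D2:**
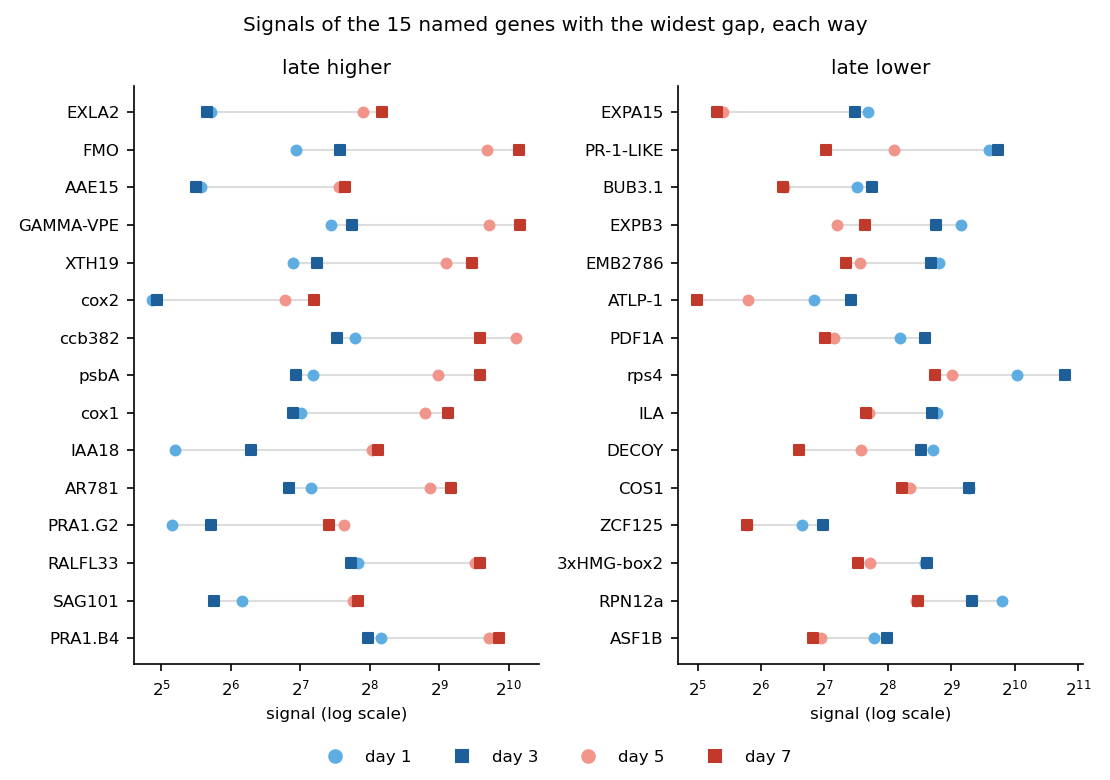
Signals on the 4 days (horizontal axes, log scale) of the 15 genes whose sides lie farthest apart among those with a symbol and 4 signals above 25, late higher at left and late lower at right, ordered by gap from the widest at the top; each point is 1 array, and where points coincide the later day covers the earlier. Early signals are blue and late ones red, and the selection by gap leaves no sides that overlap. EXLA2 leads with a gap of 4.52-fold and EXPA15 with 4.2-fold.

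GAMMA-VPE, a vacuolar processing enzyme that matures vacuolar proteases, was at 175 and 214 early and at 843 and 1148 late. SAG101, an acyl hydrolase first described from senescing leaves, was at 71.6 and 54.2 early and at 218 and 227 late. IAA18, a repressor of auxin response, was at 36.7 and 78.6 early and at 262 and 279 late. AAE15, an acyl-activating enzyme, had signals of 47.5 and 45.2 early and 189 and 200 late. Late signals in these genes exceeded early ones by at least 3.04-fold at the nearest. None of them passed the limma test, their adjusted p-values running from 0.0593 to 0.105.

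By the naming rule, 5 genes with a symbol were at or below 25 on both early arrays and well above it on both late arrays. SWEET10, of the SWEET family of sugar exporters, had signals of 7.1 and 10.4 early and 222 and 427 late, a difference of at least 3.62 on the log2 scale. OCT4, an organic cation transporter, was at 19.1 and 20.7 early and at 140 and 370 late. HIS1-3, a linker histone known from drought-treated plants, was at 17.0 and 12.8 early and at 218 and 154 late. RALFL28, a signalling peptide of the RALF family, was at 0.528 and 2.67 early and at 65.7 and 122.9 late. ATSPS4F, described above, is the fifth.

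By locus code, the widest gap was that of AT1G71695, at 45.6 and 16.4 early and 1158 and 1026 late. AT4G34950 was at 19.7 and 66.9 early and at 1133 and 1322 late. On the lower side, AT5G53820 was at 119 and 131 early and at 23.6 and 30.3 late, and AT1G54050 at 182 and 146 early and at 34.5 and 41.1 late. Early and late signals did not overlap in these 4 genes, which their selection by gap requires.

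Genes with the widest gaps on the lower side included the following. BUB3.1, a protein of the spindle checkpoint, was at 182 and 214 early and at 82.4 and 81.2 late, a gap of 2.21-fold. ASF1B, a chaperone of newly made histones, was at 220 and 254 early and at 122.8 and 113 late. PDF1A, a peptide deformylase of organelles, had signals of 291 and 382 early and 143 and 129 late. Smaller gaps were the rule on this side, since the 15 genes named by gap ran from 1.79-fold to 4.2-fold, against 2.94-fold to 4.52-fold on the higher side.

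COS1, lumazine synthase of riboflavin synthesis, had 622 and 620 early and 325 and 298 late. ILA, a HEAT-repeat protein, was at 437 and 415 early and at 209 and 202 late. PR-1-LIKE, named after a defence protein, was at 772 and 849 early and at 275 and 131 late. ATLP-1, a thaumatin-like protein, was at 114 and 172 early and at 55.8 and 31.7 late. For PR-1-LIKE and ATLP-1 the day 7 signal was clearly below that of day 5, whereas in COS1 and ILA the late signals lay close together.

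Of the 692 lower probe sets, 17 were at or below 25 on both late arrays. TET3, a tetraspanin of the plasma membrane, was at 93.8 and 64.8 early and at 19.2 and 19.5 late. GTR2, an importer of glucosinolates, was at 82.1 and 62.7 early and at 23.0 and 16.3 late. Its paralogue GTR1 was higher late, at 192 and 175 early and at 344 and 484 late, though short of 2-fold with a common median. The members of this transporter pair thus separated in opposite directions. PUB19, a ubiquitin ligase, had signals of 39.0 and 35.8 early and 23.4 and 16.4 late, short of a 2-fold mean difference.

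Gene groups were described by the median difference of their measured genes. Over all 8578 measured genes the median was 0.04, and 5.97% were higher and 4.55% lower by at least 2-fold and consistently. At any size, 27.2% were consistently higher and 24.7% consistently lower. Of 53 groups, 16 had a median of at least 0.3 and 9 one of at most -0.3 on the log2 scale.

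**Figure D3:**
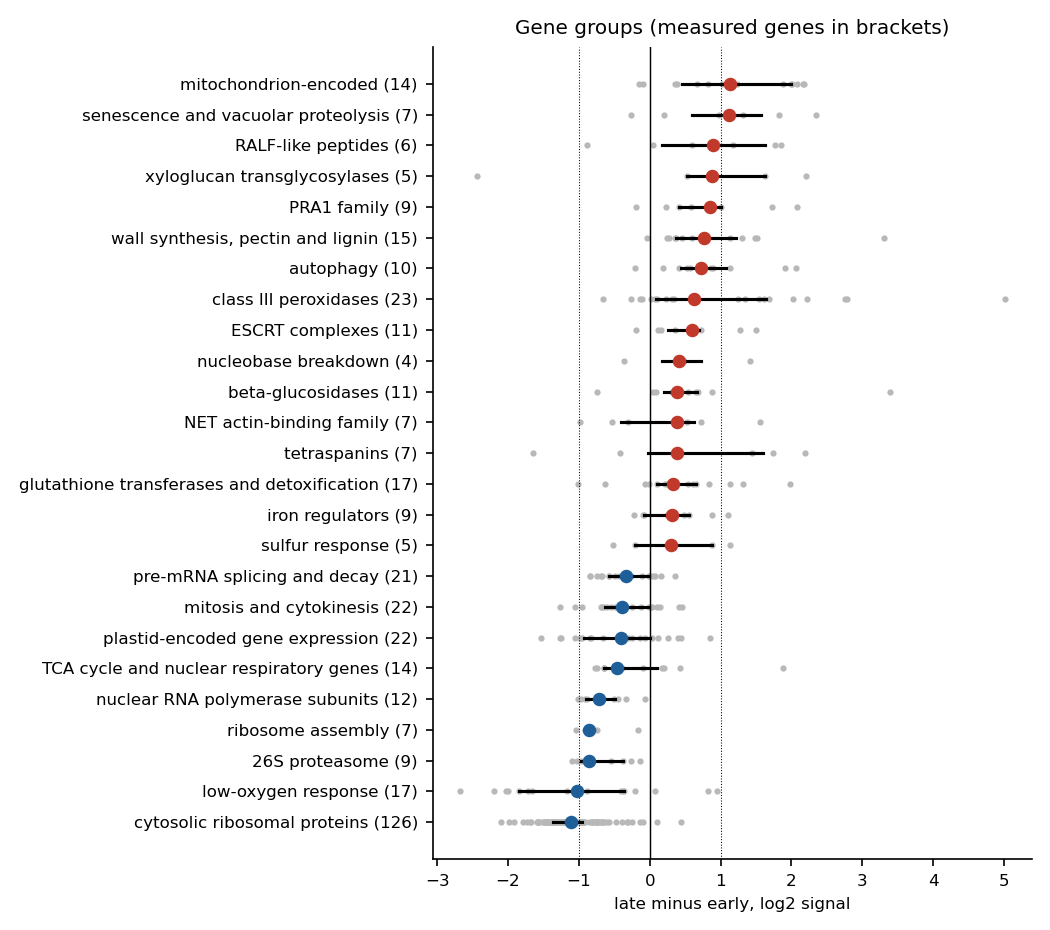
Late minus early log2 signal (horizontal axis) of the 25 gene groups whose median lies at least 0.3 from 0, with the number of measured genes in brackets. Grey points are genes, bars span the quartiles, coloured points are medians, and dotted lines mark 2-fold; medians run from -1.11 for cytosolic ribosomal proteins to 1.13 for mitochondrion-encoded genes.

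Cytosolic ribosomal proteins, the protein part of the ribosome that makes most of the cell's proteins, were the lowest group, with a median of -1.11 over 126 measured genes (quartiles -1.36 and -0.95). Of these, 120 were consistently lower and 1 consistently higher, and 77 were at least 2-fold lower. Their median step was -0.28 from day 1 to day 3, -0.73 from day 3 to day 5 and -0.45 from day 5 to day 7. AT5G59240 of this list was at 630 and 473 early and at 156 and 135 late, a gap of 3.03-fold. AT4G10450 was at 1436 and 1117 early and at 478 and 280 late.

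Genes that serve the making of ribosomes were lower too, at smaller sizes. Of 7 ribosome assembly genes, 6 were consistently lower and 1, YAO, by at least 2-fold, with a median of -0.85. YAO, a nucleolar protein needed for ribosomal RNA processing, was at 416 and 307 early and at 216 and 138 late. IMP4, of the complex that processes small-subunit RNA, was at 970 and 809 early and at 583 and 383 late. PRH75, an RNA helicase, had overlapping sides, at 694 and 492 early and 724 and 377 late.

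The subunits of the nuclear RNA polymerases had a median of -0.71, with 10 of 12 consistently lower and 1 by at least 2-fold. NRPA1, the large catalytic subunit of the polymerase for ribosomal RNA (type I), was at 335 and 217 early and at 172 and 104 late. NRPC2, of RNA polymerase III, was at 289 and 246 early and at 182 and 102 late. NRPB12, a small subunit, had signals of 873 and 632 early and 469 and 333 late. NRPD7 and NRPE7, of the plant-specific polymerases IV and V that act in gene silencing, were the 2 members with overlapping sides, with differences of -0.33 and -0.07. With the hybridisation controls, NRPA1 and YAO were at -0.82 and -0.86 and no longer 2-fold lower.

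Genes of the 26S proteasome, which breaks down ubiquitin-marked proteins, had a median of -0.86, with 8 of 9 consistently lower and 2 by at least 2-fold. RPN12a, of its lid, was at 889 and 639 early and at 349 and 357 late, a difference of -1.09. AT5G23540 was at 618 and 375 early and at 218 and 254 late, a difference of -1.03. Both missed 2-fold after quantile normalization and with the hybridisation controls. Most members outside the named ones are known here by locus code.

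Splicing and RNA decay genes had a median of -0.33, or -0.15 with the hybridisation controls, and 11 of 21 were consistently lower, 0 by 2-fold. MAC3A, a splicing-associated ubiquitin ligase, was at 561 and 468 early and at 285 and 287 late, and its paralogue MAC3B at 756 and 650 early and 523 and 427 late. Both paralogues had separated sides. ATU2AF65A and PRP39-2 were the 2 consistently higher members, with differences of 0.16 and 0.36.

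Nuclear genes of the citric acid cycle and respiration had a median of -0.46, or -0.26 with the hybridisation controls, and 8 of 14 were consistently lower, 0 by 2-fold. CYTC-1, a cytochrome c that carries electrons to the terminal oxidase, was at 2636 and 1898 early and at 1811 and 1141 late. CYTC-2 was at 315 and 241 early and at 158 and 170 late. IDH-V, of isocitrate dehydrogenase, was at 681 and 676 early and at 470 and 406 late. FDH, formate dehydrogenase, lay apart from the group with the largest difference, 1.88, but its sides overlapped, at 38.9 and 162 early and at 131 and 649 late.

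Genes that the mitochondrion itself encodes, many of them for the respiratory chain, stood on the other side. Their median was 1.13 over 14 measured genes, with 11 consistently higher, 8 by at least 2-fold, and 0 consistently lower. The gene cox1, for the core of the terminal oxidase, was at 130 and 120 early and at 446 and 560 late. Its partner subunit cox2 was at 29.3 and 30.8 early and at 110 and 147 late. The nuclear list and the mitochondrion-encoded genes thus had medians of opposite sign, at -0.46 and 1.13. Not every member of the nuclear list is mitochondrial, ICDH being peroxisomal. Whether the arrays capture organelle and nuclear transcripts alike was not tested.

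Genes for the maturation of cytochrome c differed among themselves. The signal of ccb382 was 221 and 186 early and 1098 and 770 late, and that of ccb452 was 204 and 130 early and 796 and 531 late. For ccb206 it was 109 and 90.3 early and 93.2 and 85.9 late, with overlapping sides. The gene ccb203 was at 29.7 and 29.2 early and at 83.6 and 57.3 late. The called members ccb382, ccb452 and ccb203 were each higher on day 5 than on day 7. Of the complex I genes, nad5 differed by 1.83 and 2.5 in its 2 probe sets, nad9 was at 67.1 and 38.7 early and 232 and 150 late, and nad6 had overlapping sides. The 7 probe sets of nad1, a gene whose exons lie apart, averaged 0.39. They ran from -0.03 to 1.02, and most had overlapping sides, though the averaged gene counted as consistently higher. Mitochondrial and plastid DNA have near-identical copies in the nuclear genome, which the probe sets cannot separate.

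Of 22 genes on the plastid list for gene expression, 10 were consistently lower, 4 by at least 2-fold, and 3 consistently higher, with a median of -0.40. The higher ones were accD, clpP and rpl20, with differences of 0.44, 0.12 and 0.85. Of these, accD, of fatty acid synthesis, and clpP, of a protease, do not themselves serve gene expression. Small ribosomal subunit gene rps4 was at 1054 and 1767 early and at 519 and 430 late. The neighbours rps19 and rpl22 were at 521 and 1043, and 521 and 1128, early, and at 294 and 319, and 430 and 317, late. All 3 were highest on day 3, and rpl22 missed 2-fold after quantile normalization and with the hybridisation controls. Without day 7 the group median was -0.18, and without day 1 it was -0.64.

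The 45 plastid photosynthesis genes had a median of 0.12, close to that of all genes, with 12 consistently higher and 5 consistently lower. Among them psbA, the D1 protein of photosystem II, was at 146 and 122.8 early and at 505 and 768 late. An assembly factor of photosystem I, ycf3, was at 152 and 90.8 early and at 591 and 356 late. The ATP synthase gene atpB was at 294 and 616 early and at 783 and 1482 late. Only ndhF, of the NDH complex, was consistently lower by 2-fold, at 151 and 111 early and at 105 and 33.7 late.

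The median of mitosis and cytokinesis genes was -0.39 over 22 measured genes, or -0.23 without day 7, -0.22 without day 3 and -0.21 with the hybridisation controls. Of these, 10 were consistently lower, 2 of them by 2-fold, and 1 consistently higher. KINESIN-12B, a motor of the phragmoplast that builds the new wall between daughter cells, was at 74.0 and 67.8 early and at 39.2 and 29.7 late, and missed 2-fold with the hybridisation controls. The Aurora kinases of mitosis were lower without overlap, AUR1 at 474 and 399 early and 363 and 227 late, AUR2 at 144 and 110 early and 70.5 and 60.4 late, and AUR3 at 181 and 221 early and 118 and 133 late. Spindle checkpoint genes differed, since BUB3.1 was 2-fold lower and BUBR1, at 50.2 and 73.0 early and 87.8 and 48.7 late, had overlapping sides.

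Genes of the DNA synthesis phase lay nearer the median of all genes. The 4 replication genes had a median of 0.11 and 1 of them, PRL, was consistently lower. PRL, a subunit of the replicative helicase, had signals of 508 and 494 early and 489 and 215 late. The 4 core histone genes, all for H2B, had a median of 0.19. HTB2 was consistently higher, at 304 and 269 early and at 569 and 472 late, while HTB1 and HTB11 had overlapping sides.

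**Figure D4:**
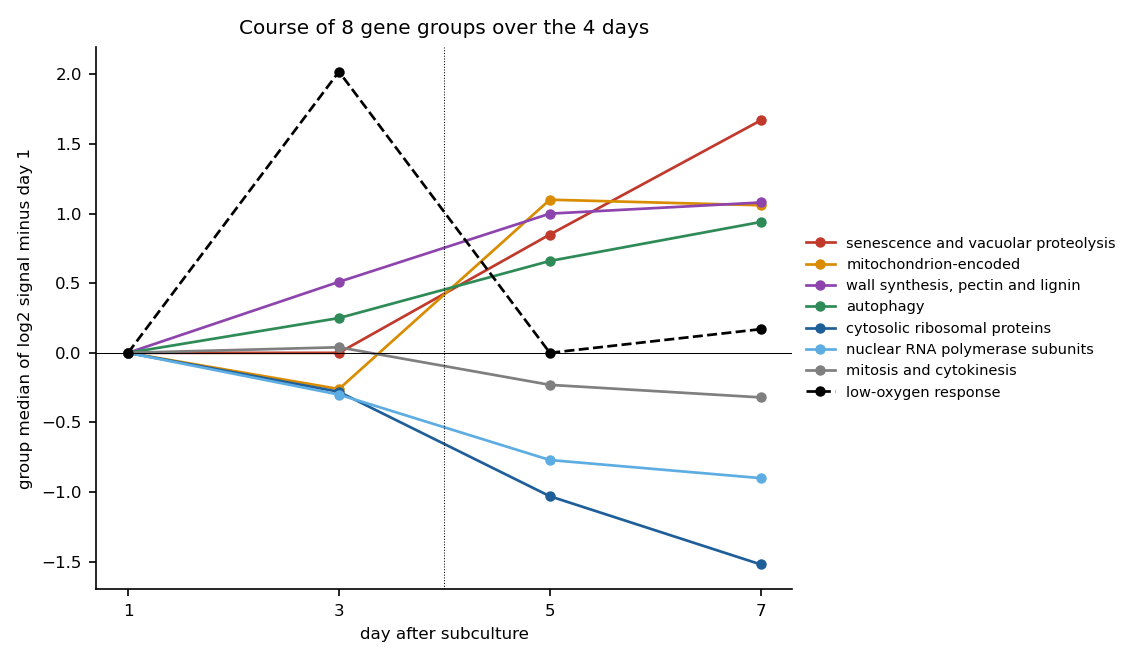
Median log2 signal of 8 gene groups minus day 1 (vertical axis) on days 1, 3, 5 and 7 (horizontal axis); the dotted vertical line separates early from late arrays, and each point is the median over the group's measured genes. The low-oxygen group, dashed, reached 2.02 on day 3 and was at 0.00 on day 5, whereas cytosolic ribosomal proteins were at -1.03 on day 5 and -1.52 on day 7.

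The list of senescence and vacuolar proteolysis stood at a median of 1.12, with 4 of 7 higher by at least 2-fold and 0 consistently lower. WRKY6, a transcription factor active in senescing leaves, was at 108 and 85.4 early and at 214 and 204 late, and it missed 2-fold with a common median. WRKY53, a regulator of leaf senescence, was at 20.21 and 21.1 early and at 45.0 and 84.9 late. BETA-VPE, a seed-type processing enzyme, had overlapping sides at 21.3 to 35.7 early and 17.1 to 23.5 late. WRKY22 overlapped as well, with 34.3 and 58.8 early and 46.1 and 170 late. Without day 5 the group median was 1.81.

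Autophagy delivers cell contents to the vacuole in membrane sacs that carry the ATG8 protein. The list had a median of 0.72, with 7 of 10 genes consistently higher, 3 by at least 2-fold, and 0 consistently lower. ATG8E was at 69.8 and 182 early and at 367 and 611 late. ATG8F was at 149 and 215 early and at 613 and 739 late, a gap of 2.86-fold. APG8A had signals of 80.1 and 144 early and 210 and 262 late, and missed 2-fold with a common median. ATG8B, ATG8G and ATG3 had overlapping sides.

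ESCRT complexes sort membrane proteins into vesicles bound for the vacuole. Their median was 0.59, with 7 of 11 consistently higher, 2 by at least 2-fold, and 1 consistently lower. SNF7.1, the filament-forming subunit, was at 20.0 and 31.5 early and at 81.0 and 77.5 late. Its paralogue SNF7.2 overlapped, at 39.9 and 101 early and at 74.6 and 67.4 late. VPS60.1 was at 97.1 and 80.8 early and at 175 and 261 late, and ELC, the member that was lower, was at 143 and 139 early and at 122 and 126 late.

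The PRA1 family, small membrane proteins that bind Rab GTPases of vesicle traffic, had a median of 0.85 with 7 of 9 consistently higher and 3 by at least 2-fold. PRA1.G2 was at 35.5 and 52.8 early and at 197 and 170 late. PRA1.B4, with the higher signals, was at 286 and 252 early and at 839 and 929 late. These 2 were named by the width of their gap before the family was listed, so the count is no independent evidence. PRA8 missed 2-fold with a common median, a common 75th percentile and quantile normalization, and the family median was 0.39 without day 7.

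RALF peptides, secreted signals that act at the cell surface, were listed in the same way, after RALFL33 had been seen. Of 6 measured genes, 5 were consistently higher, 3 by at least 2-fold, and 1 was consistently lower, with a median of 0.89. RALFL33 was at 228 and 212 early and at 735 and 767 late, and RALFL22 at 213 and 272 early and 476 and 625 late. RALFL34 was the lower one, at 49.9 and 45.6 early and at 24.21 and 27.0 late. The median was 0.39 with a floor at the 25th percentile.

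Genes of wall synthesis, pectin and lignin had a median of 0.77, with 10 of 15 consistently higher, 5 by at least 2-fold, and 0 consistently lower. PMEPCRF, a pectin methylesterase, which removes methyl groups from pectin, had signals of 18.8 and 111 early and 482 and 569 late. HCT, an enzyme of lignin precursor synthesis, was at 204 and 237 early and at 461 and 863 late. Of the CSLC family, linked to the glucan chain of xyloglucan, CSLC12 was at 65.7 and 108 early and 204 and 272 late, and CSLC5 at 85.0 and 85.5 early and 198 and 221 late. CSLC6 was the exception in that family, with overlapping sides and a difference of -0.04. Without day 1 the group median was 0.50.

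Expansins had a median of 0.18 over 14 measured genes, with 6 consistently higher and 2 lower, and 3 and 2 by at least 2-fold. Both EXPA15 and the beta expansin EXPB3, at 570 and 432 early and 146 and 198 late, were lower. All 3 expansin-like A genes were higher without overlap, EXLA1 at 655 and 1035 early and 1495 and 1819 late, EXLA3 at 314 and 296 early and 492 and 462 late, and EXLA2 as given above. Of the xyloglucan transglycosylases, 3 of 5 were consistently higher and 1 lower, and XTH18 overlapped, at 244 and 387 early and 222 and 1433 late. EXGT-A3 was at 203 and 350 early and at 584 and 1163 late.

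Class III peroxidases, secreted enzymes that can stiffen walls, had a median of 0.63 over 23 measured genes, with 8 consistently higher, 7 by at least 2-fold, and 0 consistently lower. AT1G71695, with the widest gap among genes with a locus code, belongs to this list. PRX52 was at 146 and 306 early and at 703 and 1050 late. In AT5G39580 most of the difference came on day 7, with 21.9 and 43.1 early and 80.5 and 608 late. AT2G37130 was high on day 7 alone, at 10.03, 51.1, 17.1 and 521 on the 4 days, and its sides overlapped. The group median was 0.20 without day 7, 1.06 without day 5 and 0.18 with the floor at the 25th percentile.

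Tetraspanins split strongly. TET8 was at 176 and 215 early and at 554 and 768 late, and TET5 at 43.1 and 185 early and 360 and 464 late. TET9 was at 76.6 and 165 early and at 220 and 429 late; TET3, described above, was lower. Of 7 measured members, 4 were consistently higher and 1 lower, and the median of 0.39 was 0.11 without day 1 and 1.37 without day 3.

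Among beta-glucosidases the median was 0.39 and 5 of 11 were consistently higher, 1 by at least 2-fold. BGLU42 was consistently lower, at 267 and 151 early and at 122.9 and 115.5 late. Some of the higher members lay near the floor, BGLU40 ranging from 26.8 to 35.1. BGLU46, of a pair known to act on lignin precursors, was at 17.5 and 37.2 early and at 175 and 580 late, a gap of 4.71-fold. BGLU28, with high signals of 2368 and 558 early and 1890 and 2378 late, had overlapping sides, with day 3 alone low. Of glutathione transferases and glycosyltransferases, 5 of 17 were consistently higher and 2 lower, against 27.2% and 24.7% of all measured genes. The higher count is thus near the share of all genes. GT72B1, a glycosyltransferase of phenolic compounds, was at 5.88 and 25.8 early and at 71.8 and 139 late.

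Sugar transport and storage genes had a median of 0.21, with 5 of 16 consistently higher and 0 consistently lower. The higher count is near the 27.2% of all measured genes. Beside SWEET10 and ATSPS4F, cwINV6, of the cell wall invertase family, was at 19.7 and 15.4 early and at 58.2 and 43.1 late, and missed 2-fold with 3 of 4 other scalings. Most SWEET genes were near the floor throughout, SWEET9 ranging from 17.0 to 29.3. The 6 genes of the sugar starvation list had a median of 0.08, with EXO alone at least 2-fold higher, at 985 and 1857 early and 2980 and 3708 late. EXO is better known as a growth-related wall protein, so its rise is not read as a starvation response.

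Ascorbate and redox genes had a median of -0.01, close to all genes. VTC4, an enzyme of ascorbate synthesis, was at 592 and 703 early and at 1253 and 1410 late, and GLDH, which performs the last step of that synthesis, at 251 and 180 early and 127 and 113 late. The glutaredoxins GRXC1 and GRXC2 also went apart, GRXC1 at 40.2 and 19.6 early and 105 and 99.1 late, and GRXC2 at 741 and 603 early and 419 and 307 late. Of these, VTC4 and GRXC1 were 2-fold higher, though VTC4 missed 2-fold with a common median and with a common 75th percentile.

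The low-oxygen list had a median of -1.02 that came from 1 early array. Plant cells use these genes when oxygen runs short, partly to ferment sugar. AT1G33055 had signals of 19.4, 1243, 17.9 and 30.1 on the 4 days, and AT4G27450 of 32.2, 1377, 51.7 and 85.2. PDC2, which makes acetaldehyde from pyruvate in fermentation, was at 205, 574, 260 and 257. In these genes day 3 stood alone and the sides overlapped. Only 2 of 17 genes were consistently lower, AT5G44730 at 141 and 492 early and 67.7 and 64.1 late, and AT3G10020 at 110 and 99.4 early and 40.4 and 54.0 late. Without day 3 the median was 0.18.

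Several groups lay near the median of all genes. The median was -0.01 for amino acid breakdown, with 0 of 10 consistently higher and 2 lower, and 0.13 for vacuolar proton pumps, with 2 of 5 consistently higher and 0 lower. It was 0.01 for cell cycle control, 0.05 for ER quality control and 0.06 for the IQD family, in which 0 of 6 measured genes had separated sides. Tubulin and actin genes lay somewhat lower, with a median of -0.22, TUA6 at 1988 and 1968 early and 1667 and 1500 late. TUB1, TUB5, TUB6 and TUB7 were consistently lower as well, TUB6 and TUB7 by -0.59 and -0.65. TUA1 was consistently higher, with a difference of 0.20, and ACT11 and TUB9 overlapped. The nitrogen list had a median of 0.27. It includes the glucosinolate importer GTR2 and its paralogue GTR1, and most other members are known here by locus code.

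The list of iron genes, not all of them regulators, had a median of 0.32, with 5 of 9 consistently higher, 1 by at least 2-fold, and 0 consistently lower. Its count includes FRO1, matched by symbol, whose locus AT5G67590 is that of a complex I subunit. FRO1 had overlapping sides and a difference of -0.22. NRAMP5, a metal transporter, was at 20.6 and 21.3 early and at 43.1 and 66.5 late. Without day 1 the median was 0.19, and without day 3 it was 0.52.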

How the data were processed

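RNA of MM2d cells from 4 days was hybridised to 1 ATH1 array a day. The deposited values are linear signal intensities that, per the submitters' processing notes, came from MAS5, with no version given in the sources used here. In the deposited table the mean of each array, with 2% trimmed at each end, was 100.0, so arrays were compared as deposited. Total RNA per cell leaves no trace in such values. No detection calls are used, and the number of arrays limits the precision.

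The 64 control probe sets were left out, signals below 25 were raised to 25, and log2 values were compared as day 5 and 7 against day 1 and 3, a description with no replicate error. limma 3.58.1 (R 4.3.3) gave the secondary test over all measured probe sets, with p-values adjusted after Benjamini-Hochberg. The steps were tested on simulated data.

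The platform's annotation gave 1 gene for 13513 probe sets, several for 503, and none here for 8730. Of the former, 13436 matched RefSeq's gene table (TAIR10.1). No coordinates, promoters or sequences were used here. Genes with several probe sets were averaged in the groups.

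Named genes are the 15 widest gaps each way with a symbol, 4 signals above 25 and no cross-hybridisation suffix, the 5 widest each way from or to the floor, the 4 widest each way by locus code, and from each list the 4 largest differences, or all of lists of at most 8 genes. Other members named, the unnamed probe sets and the limma calls were chosen after their values were seen. Members and lists were chosen with earlier results of these data known. Members of the ribosomal protein, peroxidase and low-oxygen lists are mostly locus codes placed there from general knowledge, and the annotation used here gives those codes no role. Of 53 lists with at least 4 measured genes, 24 were written before the data were read. The others were not, and among them the PRA1, RALF, IQD, TRM, NET, UBP and bZIP families were added after the widest gaps had been seen. PMEAMT and CYP71, matched by symbol to lists on which they do not belong, were taken out after values were seen. FRO1 of the iron list, matched by symbol in the same way, was left in. Xylem, phloem and pollen markers had no annotated probe set.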

Additional observations from a re-analysis of the deposited data

How the results depend on the processing

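No paired analysis was possible because each day has 1 array and all carry the same replicate number. A limit of 1.5-fold gave 2238 higher and 1958 lower probe sets, and one of 3-fold 428 and 108. Lower probe sets numbered 1098 with a common median and 406 with the hybridisation controls, where consistently lower ones of any size numbered 2483. Leaving out 1 day gave 951 to 1504 higher and 452 to 1211 lower. The limma test called 19 higher as reported, 32 with an intensity trend, 32 and 45 with the floor at the 25th and 50th percentiles, 102 with no floor, 233 among mean signals above 25, 29 with the hybridisation controls and 0 without any 1 day, where the lone array is assumed to vary like the other side. It called 0 lower as reported, 1 with the floor at the 50th percentile, 8 with no floor, 44 among mean signals above 25 and 9 with no filter. Under these scalings and floors the cause was not tested.

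Group medians kept their sign except those of low-oxygen genes (0.18 without day 3; -1.94 to 0.18 without any 1 day), sulfur genes (-0.08 without day 3 and -0.19 without day 7; -0.19 to 0.79 over single days left out), the NET family (-0.03 with the floor at the 25th percentile and -0.29 with no floor) and nucleobase breakdown (-0.05 without day 7; up to 0.92 without another day), each counted for medians at least 0.3 from 0. Over the 4 other scalings, 1011 values of the named genes kept their side of the 2-fold limit, 39 no longer passed it, 38 newly passed it and 0 changed sign among those called. The promoter comparison was not run.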
